A study of Mus musculus with 12 samples.

Results

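The genes described here are 10 alpha and beta tubulins, picked by name from the 20632 genes of the count tables: Tuba1a, Tuba1b, Tuba1c and Tuba4a encode alpha tubulins, and Tubb2a, Tubb2b, Tubb3, Tubb4b, Tubb5 and Tubb6 encode beta tubulins. They were chosen because Tuba1a had been seen higher in vehicle-treated knockouts, so the comparison of KO vehicle with WT vehicle is a description of them, and a call there by the fit over all genes is printed with nothing read from it. All 10 were present in the tables, and 9 passed the filter on low counts. Tubb3 did not.

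The samples were gonadal (peri-uterine) white fat of mice pregnant at E17.5, profiled by QuantSeq, which reads the 3′ ends of transcripts. There were 4 libraries in each of 3 groups. The KO Treg group carried the genotype labelled as a knockout of Tnfrsf11a (Rank) with Foxn1 Cre and had the treatment labelled Treg. The KO vehicle group carried the same genotype and had vehicle. The WT vehicle group was labelled wild type, without Cre, and had vehicle. No wild-type group had the Treg treatment, and all 3 groups were pregnant. Foxn1 is known as a gene of thymic and skin epithelium rather than fat, so the transcript of the targeted gene in fat does not check the genotype. Levels are given in CPM, which are counts scaled to a common library size. Tnfrsf11a averaged 7.78 ± 1.92 CPM in KO Treg, 7.61 ± 1.11 CPM in KO vehicle and 8.20 ± 2.51 CPM in WT vehicle (SD, n = 4 each). The labels do not say what the Treg treatment consisted of or how it was given, and no label states separate litters or cohorts, so the spread between libraries may be partly technical.

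Microtubules are hollow polymers of dimers, each of 1 alpha and 1 beta tubulin. Mammals make these subunits from several genes whose proteins differ mainly in their acidic tails, where enzymes add and remove residues and where motors and other partners bind. Tuba1b and Tubb5 are expressed in most cells, Tubb3 is the classic neuronal beta tubulin, and Tuba1a and Tubb2b are abundant in developing neurons and also present elsewhere. Cells degrade tubulin mRNA when free tubulin accumulates, by a mechanism in which TTC5 recognises the start of the nascent chain.

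The ends of 5 beta tubulin coding sequences are shown because they show how alike the copies are. Each line below gives the last 60 coding bases before the stop codon, 5′ to 3′ on the gene's own strand, from GENCODE M21 on GRCm38. Capitals mark bases that differ from Tubb2a in an alignment of the whole coding sequences, so the windows of genes of other lengths start at other codons.
Tubb2a: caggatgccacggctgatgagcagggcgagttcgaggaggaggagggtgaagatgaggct
Tubb2b: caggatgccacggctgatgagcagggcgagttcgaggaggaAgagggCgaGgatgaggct
Tubb4b: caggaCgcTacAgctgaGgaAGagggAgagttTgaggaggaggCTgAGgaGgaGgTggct
Tubb5: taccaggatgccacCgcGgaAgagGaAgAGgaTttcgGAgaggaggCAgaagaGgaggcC
Tubb3: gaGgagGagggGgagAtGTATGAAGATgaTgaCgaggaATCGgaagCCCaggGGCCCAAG

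In these windows Tubb2b differed from Tubb2a at 3 bases, Tubb5 at 14, Tubb4b at 15 and Tubb3 at 31. Over the whole coding sequence, Tuba1a was 98.3% identical to Tuba1b, 97.1% to Tuba1c and 84.7% to Tuba4a, and Tubb2a was 96.5% identical to Tubb2b. The other pairs of beta genes ran from 80.2% to 85.7%.

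The near-identical genes lie near each other. On GRCm38, Tuba1b is at chr15:98931425-98934565 and Tuba1a at chr15:98949837-98953703, both on the minus strand, and Tuba1c is at chr15:99029891-99038110 on the plus strand. Tubb2a at chr13:34074274-34078007 and Tubb2b at chr13:34126748-34130466 are both on the minus strand. Tuba4a is at chr1:75214228-75219865, Tubb4b at chr2:25222160-25224702 and Tubb5 at chr17:35833921-35838306, all on the minus strand, while Tubb3 is at chr8:123411424-123422015 on the plus strand and Tubb6 is on chromosome 18.

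The likeness limits how firmly reads can be given to 1 copy. Of the 251 windows of 50 bases in the last 300 bases of the transcript, 21.5% in Tuba1a, 34.7% in Tuba1b and 43.0% in Tuba1c were also found in a transcript of another gene, mostly each other and processed pseudogenes. The share was 16.3% in Tubb2a and 30.3% in Tubb4b, and it was 0 in Tuba4a, Tubb2b, Tubb3, Tubb5 and Tubb6. The sources used here do not say how reads that match several places were counted. Exons of Tuba1a and Tuba1b also overlap Gm49450 on the same strand, by 473 and 426 bases, but none of their windows above was found in Gm49450. Tuba4a shares 1379 exon bases with Stk16 on the opposite strand, and without a stated strand setting their reads cannot be told apart. Stk16, a kinase, averaged 94.7 CPM in KO Treg, 96.8 CPM in KO vehicle and 101 CPM in WT vehicle.

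Library totals ran from 5551967 to 12972655 counts, and 3 counts were worth 0.241 to 0.539 CPM, a limit that covers counting error only. The 10 genes together took 0.148% to 0.318% of all counts of a library. The sample titles carry numbers from a low and a high range, here called the lower and higher number series, and the groups are not balanced over them: the lower one holds KO Treg 1 and 2, all 4 KO vehicle libraries and WT vehicle 1 and 2, and the higher one holds KO Treg 3 and 4 and WT vehicle 3 and 4. The labels do not say what the series mark. KO Treg 2 and KO vehicle 1 held the most placental transcripts, with summed placental markers of 265 and 113 CPM, against 12.7 to 31.9 CPM in the others. Of the 14 markers, 11 and 12 had a count in these 2 libraries. WT vehicle 4 had counts on 8 and WT vehicle 2 on 6, and the rest on 1 to 3. Below, the libraries with placental transcripts means KO Treg 2 and KO vehicle 1. In bulk fat, fewer cells of a type and less RNA per cell cannot be told apart.

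Tuba1b and Tuba1a supplied most of the alpha tubulin transcripts, and Tubb4b and Tubb5 most of the beta ones. Since QuantSeq counts transcript ends, levels of different genes are compared in CPM with no scaling by length. Tuba1b was the highest of the 10 in every library. Tuba1a came second in KO Treg and in KO vehicle, above Tubb4b in 4 of 4 libraries of each, and below Tubb4b in WT vehicle, where Tubb4b was above it in 3 of 4 libraries. Tubb4b exceeded Tubb5 in every library but KO Treg 1. Tubb5 and Tuba1c came next, and their order differed between libraries of each group, as did that of Tuba4a and Tubb2b in KO vehicle and of Tubb2a and Tubb2b in KO Treg and WT vehicle. Tubb6 and Tubb3 were last in all 12 libraries.

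**Figure D1:**
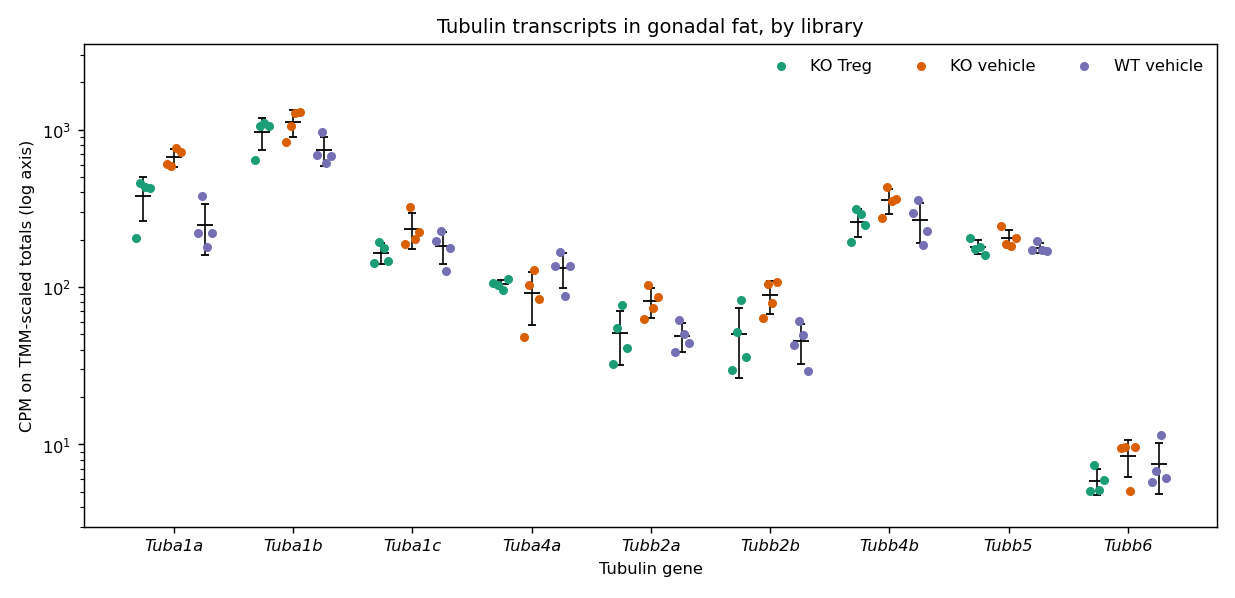
CPM of the 9 tubulin genes that passed the filter, on a log axis, with 1 point per library and the mean ± SD of each group of 4. Tuba1b is highest in all 3 groups and Tubb6 lowest, and the 4 KO vehicle points of Tuba1a, at 586 to 764 CPM, lie above every point of KO Treg and WT vehicle.

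Tuba1a, the gene behind the choice, measured 601, 586, 764 and 722 CPM in KO vehicle 1 to 4, against 220, 378, 179 and 220 CPM in WT vehicle 1 to 4. The groups did not overlap. The means were 668 ± 88.4 CPM in KO vehicle and 249 ± 88.1 CPM in WT vehicle (SD, n = 4 each), a 2.68-fold difference and a log2 fold change of 1.42 ± 0.26 (SE, edgeR). In this comparison Tuba1a was the 1 tubulin gene of 9 called at an adjusted p under 0.05, where 0.279% of all 12175 genes tested were called. That contrast chose the genes, so nothing is read from the count. The call was absent without any 1 of the 4 KO vehicle libraries, without KO Treg 3 or 4, without WT vehicle 1 or 3, with the number series as a covariate, without the 2 libraries holding placental transcripts, and within the lower number series. The log2 fold change was 1.15 ± 0.33 in the lower series and 1.28 to 1.47 in the other settings of that list. With the counts of Tuba1b and Tuba1c added to those of Tuba1a, the sum was not called either.

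In KO Treg 1 to 4, Tuba1a measured 204, 456, 433 and 424 CPM, a mean of 379 ± 117 CPM (SD, n = 4). All 4 were below the lowest KO vehicle library, and KO Treg 1 stood well below the other 3. The log2 fold change of KO Treg over KO vehicle was -0.82 ± 0.26 (edgeR adjusted p = 0.360), so the difference did not pass the threshold. This comparison uses the same KO vehicle libraries as the one that chose the gene. Against WT vehicle, the log2 fold change of KO Treg was 0.61 ± 0.25 (edgeR adjusted p = 0.99999), and the groups overlapped. Within the lower number series that difference was 0.15 ± 0.36, from KO Treg at 204 and 456 CPM against WT vehicle at 220 and 378 CPM. Within the higher series it was 1.11 ± 0.18, from KO Treg at 433 and 424 CPM against WT vehicle at 179 and 220 CPM. Each of these values sets 2 libraries against 2, in fits added after the data were seen. Over all alternatives, the lowest edgeR or DESeq2 adjusted p of Tuba1a for KO Treg over WT vehicle was 0.248. The higher series has no KO vehicle library, so the other comparisons cannot be repeated in it.

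Tuba1b, the ubiquitous alpha tubulin, followed the same order of means over a narrower range. It measured 641, 1057, 1100 and 1051 CPM in KO Treg, 833, 1053, 1270 and 1302 CPM in KO vehicle, and 694, 962, 612 and 684 CPM in WT vehicle. KO vehicle and WT vehicle overlapped, through KO vehicle 1 and WT vehicle 2. Its log2 fold change was 0.59 ± 0.20 for KO vehicle over WT vehicle, -0.21 ± 0.19 for KO Treg over KO vehicle (edgeR adjusted p = 0.833) and 0.38 ± 0.19 for KO Treg over WT vehicle (edgeR adjusted p = 0.99999). The KO Treg over KO vehicle value was -0.045 without KO Treg 1, -0.32 without KO vehicle 1, -0.13 without KO vehicle 3, -0.11 without KO vehicle 4 and -0.37 both without the placental libraries and in the lower number series. The KO Treg over WT vehicle value was 0.045 in the lower series and 0.73 in the higher one.

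Tuba1c, the remaining chromosome 15 copy, averaged 165 ± 24.6 CPM in KO Treg, 234 ± 60.3 CPM in KO vehicle and 182 ± 42.9 CPM in WT vehicle (SD, n = 4 each). Its highest value was 321 CPM in KO vehicle 2. KO Treg over KO vehicle gave a log2 fold change of -0.50 ± 0.19 (edgeR adjusted p = 0.465), and these groups overlapped. Without KO vehicle 2 it was -0.29. Because these 3 genes share 3′ sequence, their counts were also summed. The sum had a log2 fold change of 0.77 ± 0.19 for KO vehicle over WT vehicle, -0.40 ± 0.19 for KO Treg over KO vehicle and 0.37 ± 0.19 for KO Treg over WT vehicle. The edgeR test called it in none of these comparisons, with an adjusted p of 0.110 for KO vehicle over WT vehicle.

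Tuba4a, the alpha tubulin encoded on chromosome 1, had its means in the opposite order. It measured 106, 103, 96.2 and 113 CPM in KO Treg, 48.4, 103, 129 and 83.8 CPM in KO vehicle, and 137, 167, 87.1 and 136 CPM in WT vehicle. KO Treg varied least, and the lowest value of all was KO vehicle 1, which held placental transcripts. On the log2 scale the fold change was -0.54 ± 0.24 for KO vehicle over WT vehicle and 0.20 ± 0.24 for KO Treg over KO vehicle (edgeR adjusted p = 0.891). Without KO vehicle 1 these values were -0.33 and -0.00070, and without KO vehicle 3 the second was 0.43.

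Tuba1a also took its largest share of the alpha tubulin transcripts in KO vehicle. It made up 18.7%, 25.2%, 24.0% and 24.5% of alpha tubulin counts in KO Treg 1 to 4, 36.0%, 28.4%, 32.3% and 31.0% in KO vehicle, and 17.6%, 21.8%, 17.8% and 18.1% in WT vehicle. The exact 95% binomial intervals (Clopper-Pearson, counting error only) reached from 27.8% to 36.7% over the KO vehicle libraries and from 16.8% to 22.4% over the WT vehicle libraries. Every KO vehicle library was above every KO Treg and every WT vehicle library. The ratio of Tuba1a to Tuba1b counts was 0.319 to 0.431 in KO Treg, 0.555 to 0.721 in KO vehicle and 0.292 to 0.393 in WT vehicle. Tuba4a made up 5.33% to 9.67% of alpha tubulin counts in KO Treg, 2.90% to 5.45% in KO vehicle and 8.69% to 11.2% in WT vehicle. These shares come from the contrast that chose the genes or use its libraries, and no test was made of them.

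**Figure D2:**
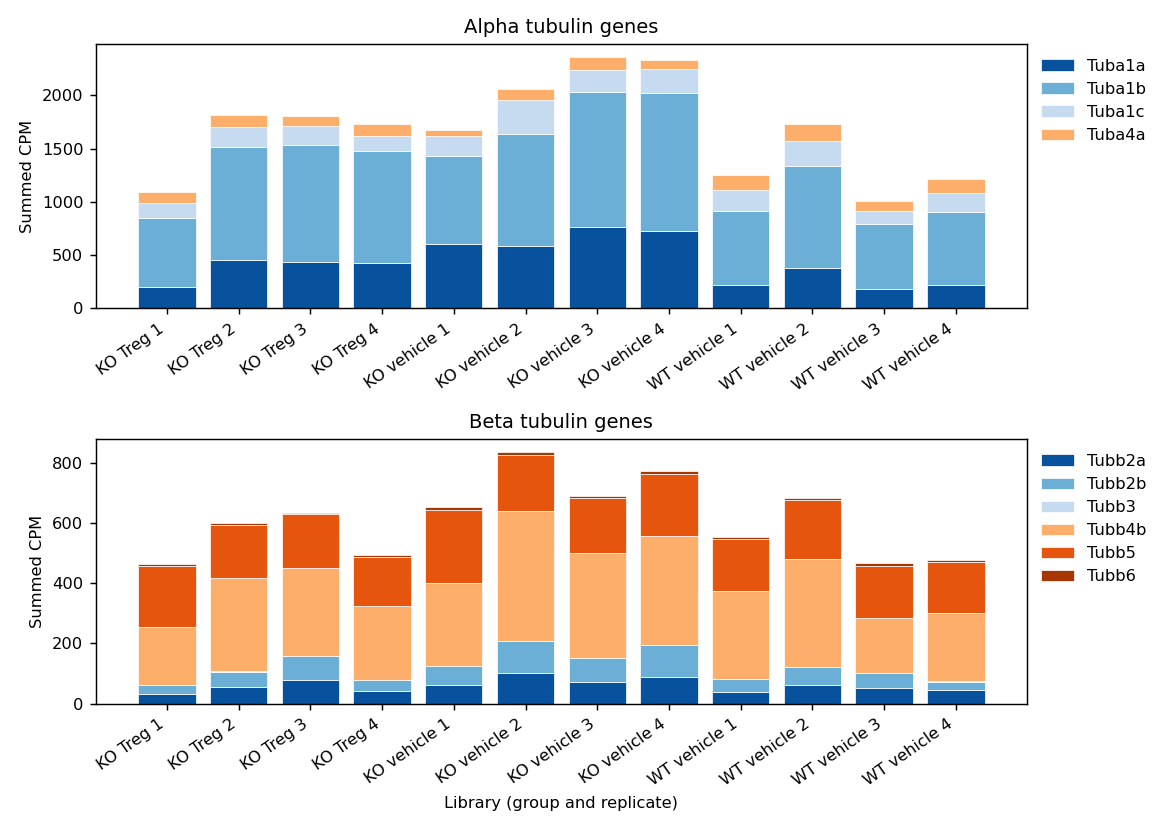
Stacked bars of CPM summed over the 4 alpha tubulin genes (upper panel) and the 6 beta tubulin genes (lower panel) in each of the 12 libraries. The Tuba1a block is largest in the 4 KO vehicle bars, and Tubb4b and Tubb5 fill most of every beta bar.

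Summed alpha tubulin was 1611 ± 346 CPM in KO Treg, 2107 ± 321 CPM in KO vehicle and 1301 ± 309 CPM in WT vehicle (SD, n = 4 each). Summed beta tubulin was 548 ± 82.5 CPM in KO Treg, 738 ± 82.6 CPM in KO vehicle and 546 ± 100 CPM in WT vehicle. Alpha counts exceeded beta counts in all 12 libraries, by a ratio of 2.36 to 3.52 in KO Treg, 2.46 to 3.43 in KO vehicle and 2.14 to 2.55 in WT vehicle. Tuba8 and Tubb4a were not in these sums.

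Tubb2a and Tubb2b, near-identical beta tubulins from neighbouring loci, moved alike over the libraries. Tubb2a measured 32.5, 54.7, 76.8 and 41.3 CPM in KO Treg, 62.3, 103, 73.2 and 86.7 CPM in KO vehicle, and 38.4, 61.8, 50.7 and 43.8 CPM in WT vehicle. Tubb2b measured 29.7, 51.8, 82.5 and 36.1 CPM in KO Treg, 63.2, 105, 79.4 and 107 CPM in KO vehicle, and 42.7, 60.7, 49.6 and 29.4 CPM in WT vehicle. For both genes every KO vehicle value was above every WT vehicle value, though for each the gap between the nearest libraries was small. KO Treg 3 reached into the KO vehicle range for both.

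The log2 fold change of KO vehicle over WT vehicle was 0.74 ± 0.24 for Tubb2a and 0.96 ± 0.31 for Tubb2b, as a description. It was -0.67 ± 0.24 for KO Treg over KO vehicle in Tubb2a (edgeR adjusted p = 0.446) and -0.83 ± 0.31 in Tubb2b (edgeR adjusted p = 0.465). The ratio of Tubb2b to Tubb2a counts was 0.874 to 1.07 in KO Treg, 1.01 to 1.23 in KO vehicle and 0.671 to 1.11 in WT vehicle, and the groups overlapped.

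**Figure D3:**
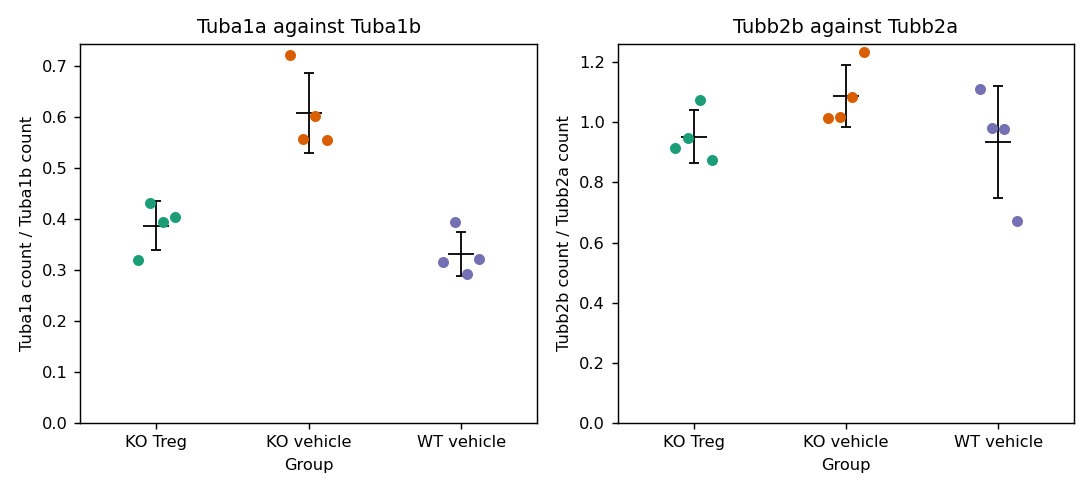
Ratio of Tuba1a to Tuba1b counts (left) and of Tubb2b to Tubb2a counts (right), with 1 point per library and the mean ± SD of each group of 4. The KO vehicle ratios of Tuba1a to Tuba1b, 0.555 to 0.721, lie apart from the other groups, while the Tubb2b to Tubb2a ratios overlap.

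Tubb4b and Tubb5 were the main beta tubulins of this tissue. Tubb4b measured 192, 311, 291 and 249 CPM in KO Treg, 276, 432, 350 and 363 CPM in KO vehicle, and 294, 357, 184 and 228 CPM in WT vehicle, and all groups overlapped. Its log2 fold change was 0.42 ± 0.20 for KO vehicle over WT vehicle, -0.45 ± 0.20 for KO Treg over KO vehicle (edgeR adjusted p = 0.550) and -0.03 ± 0.20 for KO Treg over WT vehicle. The first value was 0.26 without WT vehicle 3 and 0.11 in the lower number series, and the second was -0.30 with the series as a covariate.

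Tubb5 varied least between libraries of a group among the 9 genes fitted, with a biological coefficient of variation of 15.0% in the edgeR fit, against 20.8% to 30.1% for the other 8. It averaged 180 ± 17.9 CPM in KO Treg, 205 ± 27.1 CPM in KO vehicle and 178 ± 13.3 CPM in WT vehicle (SD, n = 4 each). It had a log2 fold change of 0.20 ± 0.13 for KO vehicle over WT vehicle and of -0.19 ± 0.13 for KO Treg over KO vehicle (edgeR adjusted p = 0.728). Without KO vehicle 1 these values were 0.11 and -0.088, and without KO Treg 4 the second was -0.12.

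Tubb6 and Tubb3 were the scarce beta tubulins. Tubb6 averaged 5.90 ± 1.09 CPM in KO Treg, 8.45 ± 2.26 CPM in KO vehicle and 7.53 ± 2.68 CPM in WT vehicle, and its highest value was 11.5 CPM in WT vehicle 3. Its log2 fold change of KO Treg over KO vehicle was -0.51 ± 0.26 (edgeR adjusted p = 0.610). Tubb3, the neuronal beta tubulin, had 22 counts in all, with 3, 2, 0 and 1 in KO Treg, 2, 0, 0 and 3 in KO vehicle, and 4, 4, 0 and 3 in WT vehicle, so no difference was detectable at this depth. The 18 markers of neurons and Schwann cells summed to 97.4 to 140 CPM in KO Treg, 91.2 to 150 CPM in KO vehicle and 94.3 to 217 CPM in WT vehicle. Th and Dbh, enzymes of noradrenaline synthesis and 2 of the 18, had no count. Only 6 of the 18 were tested, and edgeR called 0. In both KO vehicle over WT vehicle and KO Treg over KO vehicle, DESeq2 called 1 of them, against 1.93% and 0.58% of all genes. In each, 2 had an unadjusted edgeR p under 0.05, against 12.4% and 8.77% of all genes.

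Over the 9 genes, 8 were above 0 in KO vehicle over WT vehicle, with a median log2 fold change of 0.42, against a median of -0.0039 over all 12175 genes. There 3 of the 9 did not overlap between groups, all higher in KO vehicle. Over all genes, 6.51% did not overlap in either direction and 4.17% were higher in KO vehicle without overlap. Tuba1a is 1 of these 3, and this contrast chose the genes, so nothing is read from these values. In KO Treg over KO vehicle, 8 of 9 were below 0 with a median of -0.50, against -0.0018 over all genes. The edgeR test called 0 of 9 there, as did DESeq2. Over all genes edgeR called 0.00821%, which is 1 gene, the muscle membrane-repair gene Dysf, named after its values were seen and not called by edgeR without any 1 of the 12 libraries. DESeq2 called 64 genes, or 0.58% of those it gave an adjusted p. Before adjustment, 5 of the 9 had an edgeR p under 0.05, all lower in KO Treg. Over all genes, 8.77% had one in either direction and 5.08% had one and were lower. The 5 were Tuba1a, Tuba1c, Tubb2a, Tubb2b and Tubb4b, and they include near-identical copies, so they are not separate results. With copies summed, the unadjusted edgeR p was 0.053 for Tuba1a, Tuba1b and Tuba1c together and 0.015 for Tubb2a and Tubb2b together. Of the 9, 1 did not overlap, Tuba1a, where 5.04% of all genes did not overlap in either direction and 3.03% were lower in KO Treg. The 2 comparisons share the 4 KO vehicle libraries, so their opposite signs are not independent of each other. Tuba1a was seen high in those libraries, so the KO Treg over KO vehicle counts are not free of the choice either. For KO Treg over WT vehicle, 5 of 9 were above 0 and 4 below, with a median of 0.02. The edgeR test called 0 of 9 and 0% of all genes, DESeq2 called 0 of 9 and 0.00608% of its genes, and 1 of 9 had an unadjusted edgeR p under 0.05, where 2.87% of all genes did. None of the 9 was without overlap there, against 1.63% of all genes.

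**Figure D4:**
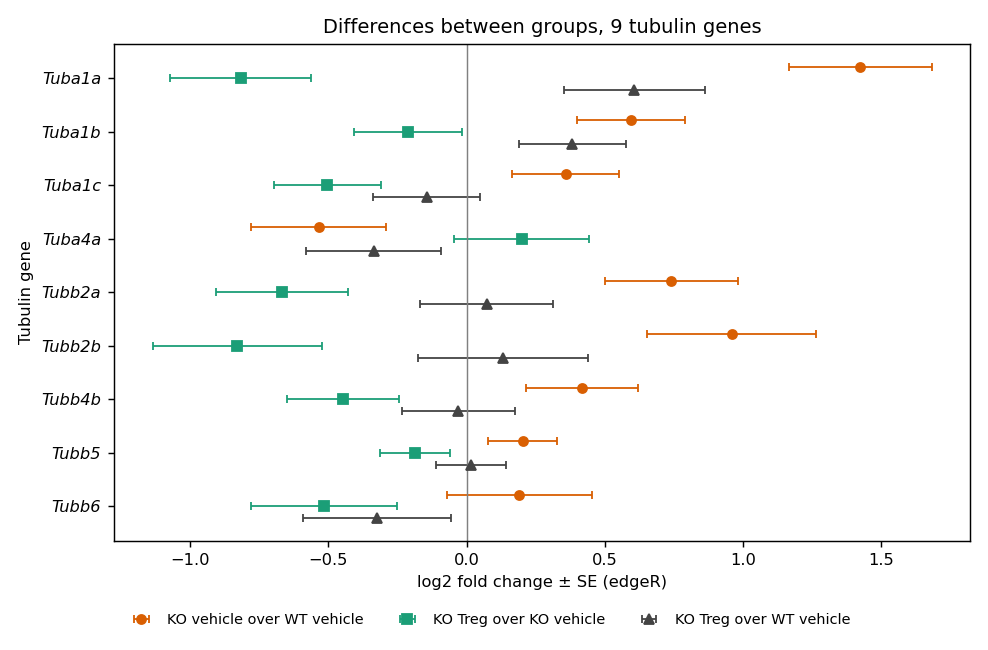
The log2 fold change ± SE of 9 tubulin genes in 3 comparisons from 1 edgeR fit of 12 libraries. In 8 genes the KO vehicle over WT vehicle point lies above 0 and the KO Treg over KO vehicle point below 0, and Tuba4a has the opposite signs.

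The pattern of each gene over the 12 libraries was compared with that of every other gene by the mean absolute difference of log2 CPM, after centring each gene on its own mean. This is a description that includes the libraries used to choose the genes. Among 12174 genes, the 5 most like Tuba1a were Hn1l at 0.25, Ret, a receptor tyrosine kinase, at 0.26, Pkp2, a desmosomal plaque protein, at 0.26, Prrg3 at 0.27 and Map9, a microtubule-associated protein, at 0.28, where the median gene was at 0.65. Tuba1b ranked 30 at 0.34, Tubb2b ranked 56 at 0.37, Tubb2a ranked 97 at 0.39 and Tubb4b ranked 178 at 0.42. Tuba4a ranked 10642 and Tubb5 ranked 3086. Seen from the other gene, Tuba1a ranked 3713 for Tuba1b, 136 for Tubb2b, 2562 for Tubb2a and 7818 for Tubb4b. The median gene was nearer to Tubb4b, at 0.38, than Tuba1a was.

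An alpha and a beta gene formed the closest pair among the 9. Tuba1c and Tubb4b were each the gene nearest to the other of 12174, at a mean absolute difference of 0.12 on the log2 scale, where the median gene was at 0.35 from Tuba1c and 0.38 from Tubb4b. None of the windows of 50 bases at their 3′ ends was shared between these 2 genes. Tubb2a was the nearest gene to Tubb2b, and Tubb2b ranked 2 for Tubb2a, both at 0.15. Of Tubb2a's windows, 13.9% were also in Tubb2b. Tubb2b's own last 300 bases, which lie beyond its coding sequence, had none in another gene.

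**Figure D5:**
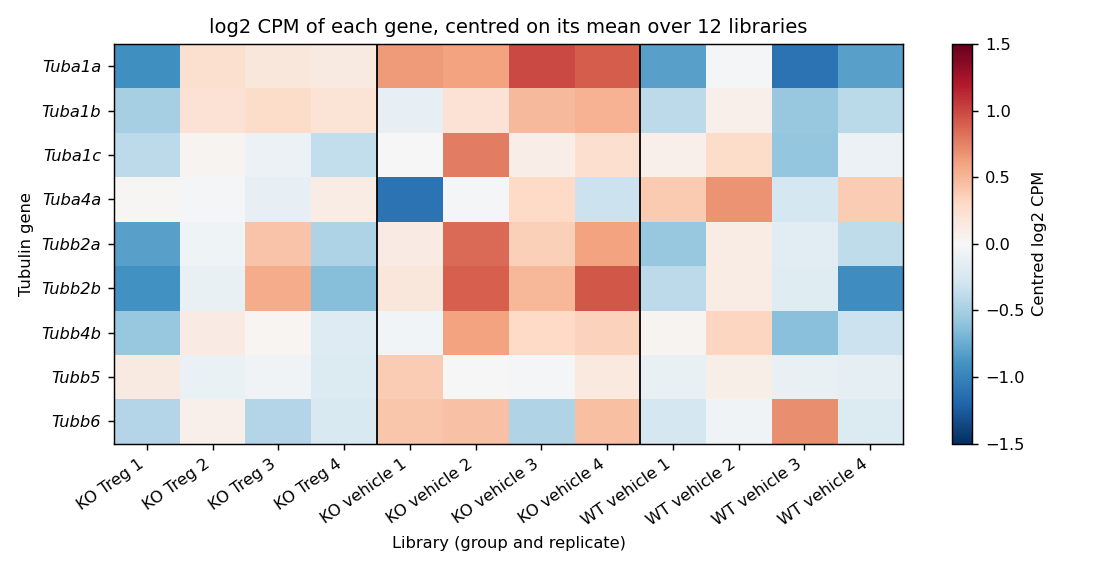
log2 CPM of 9 tubulin genes in each of 12 libraries, centred on the gene's mean over the libraries (red above, blue below). Tuba1a is above its mean in all 4 KO vehicle libraries, the Tubb2a and Tubb2b rows are alike, as are those of Tuba1c and Tubb4b, and Tuba4a is lowest in KO vehicle 1.

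Among the listed genes that nucleate, fold, modify or use tubulin, none of those tested passed the edgeR threshold in any of the 3 comparisons. DESeq2 called 0 of them. Hn1l and Map9, named above for their likeness to Tuba1a, are on none of these lists. In KO vehicle over WT vehicle the log2 fold change was 1.37 for Hn1l (edgeR adjusted p = 0.0267) and 0.99 for Map9 (edgeR adjusted p = 0.149). Both were picked for their likeness to Tuba1a, so nothing is read from these values. Before adjustment, an edgeR p under 0.05 was reached in KO vehicle over WT vehicle by 1 folding gene, 2 modifying enzymes, 4 microtubule binders and 3 motors, in KO Treg over KO vehicle by 0, 1, 2 and 3 of these, and in KO Treg over WT vehicle by 1, 0, 0 and 0. The lists hold 22 folding genes, 17 enzymes, 25 binders and 23 motors tested, and over all genes the share with such a p was 12.4% in KO vehicle over WT vehicle, 8.77% in KO Treg over KO vehicle and 2.87% in KO Treg over WT vehicle. Of the 10 other tubulins, 3 were tested, and neither they nor the genes of the gamma-tubulin ring complex had an unadjusted p under 0.05. Tubg1, the gamma tubulin that nucleates microtubules, averaged 69.1 ± 12.1 CPM in KO Treg, 62.4 ± 11.0 CPM in KO vehicle and 63.8 ± 7.03 CPM in WT vehicle. Tuba8, an alpha tubulin known from muscle and testis, stood at 31.1 CPM in WT vehicle 1 and 2.05 to 7.88 CPM in the other 11 libraries. The gamma-tubulin ring complex had 10 of 10 genes tested, among them Pcnt, the pericentrin scaffold, and Tubgcp3, a core subunit. Their log2 fold changes for KO vehicle over WT vehicle were 0.08 ± 0.13 and -0.01 ± 0.15.

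The list of chaperones and cofactors that fold tubulin, which also holds the mRNA regulator Ttc5, had a median near 0 in all 3 comparisons. All 22 were tested, with median log2 fold changes of -0.0056 for KO vehicle over WT vehicle, -0.02 for KO Treg over KO vehicle and -0.02 for KO Treg over WT vehicle. Cct7, a subunit of the chaperonin that folds tubulin and actin, averaged 438 ± 38.7 CPM in KO Treg, 455 ± 34.7 CPM in KO vehicle and 434 ± 42.8 CPM in WT vehicle. Pfdn5, a subunit of prefoldin, which hands unfolded tubulin and actin to that chaperonin, averaged 317 ± 10.9 CPM in KO Treg, 289 ± 27.6 CPM in KO vehicle and 314 ± 42.7 CPM in WT vehicle.

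Of the enzymes that modify tubulin, 17 of 18 were tested, including Sirt2, a tubulin deacetylase, and Ttl, the tubulin tyrosine ligase. Their log2 fold changes for KO vehicle over WT vehicle were -0.01 ± 0.13 and -0.16 ± 0.21. Proteins that bind microtubules or set their dynamics had 25 of 27 tested. Mapre1, which tracks growing plus ends, averaged 251 ± 30.4 CPM in KO Treg, 278 ± 12.7 CPM in KO vehicle and 244 ± 8.24 CPM in WT vehicle, and Mtus1 had a log2 fold change of -0.07 ± 0.15 for KO vehicle over WT vehicle. Of the motors, 23 of 24 were tested, among them Kif1c, a kinesin, and Dynll2, a dynein light chain, with log2 fold changes of -0.10 ± 0.16 and -0.02 ± 0.14.

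Genes of actin and intermediate filaments had 21 of 21 tested. In KO vehicle over WT vehicle 19 were above 0 with a median of 0.15, and 1 was called: Tpm4, a tropomyosin that stabilises actin filaments, rose to 133 ± 19.5 CPM in KO vehicle, against 76.3 ± 8.53 CPM in WT vehicle (log2 fold change 0.81 ± 0.15, edgeR adjusted p = 0.0403). Over all genes 0.279% were called there. The call of Tpm4 was absent with the number series as a covariate, in the lower series, without the placental libraries, without any 1 KO vehicle library, without KO Treg 3 or 4 and without WT vehicle 1, 2 or 3. DESeq2 called 2 of the 21 in that comparison, where it called 1.93% of all genes. In KO Treg, Tpm4 averaged 82.1 ± 15.4 CPM, a log2 fold change of -0.70 ± 0.15 over KO vehicle (edgeR adjusted p = 0.248). In KO Treg over KO vehicle, 18 of the 21 were below 0, with a median of -0.12 and 0 called by edgeR, 1 by DESeq2 and 4 at an unadjusted edgeR p under 0.05. Over all genes DESeq2 called 0.58%, and 8.77% had such an unadjusted p. Actb, cytoplasmic actin, averaged 2529 ± 332 CPM in KO Treg, 3255 ± 222 CPM in KO vehicle and 2798 ± 614 CPM in WT vehicle, and Tmsb4x, which binds actin monomers, had a log2 fold change of -0.04 ± 0.16 for KO vehicle over WT vehicle.

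Summed markers of dividing cells were highest in KO vehicle. The 20 proliferation markers, all with counts, summed to 36.6 to 46.6 CPM in KO Treg, 53.5 to 69.6 CPM in KO vehicle and 36.5 to 49.1 CPM in WT vehicle, so KO vehicle did not overlap either group. Of the 16 tested, 14 were above 0 in KO vehicle over WT vehicle with 1 called, the mitotic kinase gene Cdk1, named after its values were seen, against 0.279% of all genes. That call was absent with the number series as a covariate, in the lower series, without the placental libraries, without any 1 KO vehicle library, without KO Treg 4 and without WT vehicle 1, 2 or 3. In the same comparison DESeq2 called 1 of the 16, against 1.93% of all genes. There 6 had an unadjusted edgeR p under 0.05, against 12.4% of all genes. In KO Treg over KO vehicle 14 were below 0, with 0 called by edgeR, 1 by DESeq2 and 2 at an unadjusted edgeR p under 0.05, against 0.58% and 8.77% of all genes for the last 2 counts. All 10 smooth muscle markers were below 0 in KO vehicle over WT vehicle, with a median of -1.38. They were also all below 0 in KO Treg over WT vehicle, with a median of -0.91. Neither edgeR nor DESeq2 called any. An unadjusted edgeR p under 0.05 was reached by 6 in the first comparison and 0 in the second, against 12.4% and 2.87% of all genes. The smooth muscle markers summed to 698 to 2419 CPM in KO Treg, 713 to 1712 CPM in KO vehicle and 644 to 3824 CPM in WT vehicle. The 12 macrophage markers summed to 828 to 1213 CPM in KO Treg, 952 to 1288 CPM in KO vehicle and 876 to 1016 CPM in WT vehicle. Of these, 11 were above 0 in KO vehicle over WT vehicle and 10 below 0 in KO Treg over KO vehicle, with 0 called by edgeR or DESeq2 and 1 at an unadjusted edgeR p under 0.05 in each, where 12.4% and 8.77% of all genes had one. The part of these 3 marker lists in the tubulin values was not tested.

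The 11 adipocyte markers, which define the tissue, summed to 68239 to 96521 CPM in KO Treg, 68629 to 86950 CPM in KO vehicle and 83602 to 100326 CPM in WT vehicle. The sums of stromal, endothelial and mesothelial markers overlapped between all groups. Of the markers on these lists, edgeR called 0 in any comparison. In KO vehicle over WT vehicle DESeq2 called 2 of 11 adipocyte and 2 of 14 stromal markers, against 1.93% of all genes. There an unadjusted edgeR p under 0.05 was reached by 12.4% of all genes. It was reached by 4 of 11 adipocyte, 3 of 14 stromal, 3 of 10 endothelial and 0 of 9 mesothelial markers. In KO Treg over KO vehicle DESeq2 called 1 of 14 stromal markers, against 0.58% of all genes. The placental list had Prl5a1 at 0 in every library.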

How the data were processed

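Per the labels' protocols, DNase-treated total RNA of gonadal white fat went into QuantSeq 3′ libraries. The authors deposited 1 table of unnormalised counts by gene symbol for each library. TopHat2 2.1.1, HTSeq 0.6.1, BWA 0.7.12 and SAMtools 1.3.1 are named in the submitters' processing notes, with the build mm10. The sources used here give neither the steps in which these ran nor the annotation or strandedness of the counting. From these counts, edgeR 4.0.16 in R 4.3.3 gave TMM-scaled CPM and a robust quasi-likelihood fit of all 12 libraries in 3 groups, after its filter on low counts (12175 genes kept). P-values were adjusted by Benjamini-Hochberg over all genes tested, with a threshold of 0.05. The SE of a log2 fold change was derived from the F statistic. A prior count of 2 entered log2 CPM. The fit was also run on simulated counts that held no number series or placental transcripts. The share of true changes it found is not reported here, so an absent call does not show an absent difference.

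Alternatives were RLE size factors, DESeq2 1.42.0, no filter, only the 2 groups compared, the number series as a covariate, leaving out each library, summed copies, and 3 added after seeing the data: leaving out the 2 libraries with placental transcripts, and each number series alone. The genes, lists, and rules were chosen with earlier results of these data known. Named genes were the 10 tubulins, Tnfrsf11a, the 5 genes most like Tuba1a and, from each pathway list, the 2 with the highest mean log2 CPM and any called. Groups come from the genotype and treatment labels; replicate numbers follow the order of accession and pair nothing. Sequences, positions and 3′ windows come from GENCODE M21 on GRCm38. Sequences of the alpha genes are not reported here. Muc16 was not found in the tables.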

Additional observations from a re-analysis of the deposited data

Results flagged for a closer look

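Of 27 sets of 4 values (9 tubulin genes in 3 groups), 4 held a library whose gap to its nearest neighbour, as a share of the range, was above Dixon's critical value at 95%. Chance flags about 1 set in 20. Tuba1a was 204 CPM in KO Treg 1, where the other 3 KO Treg libraries were at 424 to 456 CPM. Tuba1b was also low in KO Treg 1, at 641 CPM, where the others were at 1051 to 1100 CPM. Tubb5 was 198 CPM in WT vehicle 2, where the others were at 169 to 173 CPM. Tubb6 was 5.07 CPM in KO vehicle 3, where the others were at 9.48 to 9.65 CPM.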

How the results depend on the processing

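No paired analysis was possible because the labels give the groups no shared replicate numbers. For KO vehicle over WT vehicle, edgeR called 34 genes, DESeq2 250, the fit with the number series as a covariate 0, the fit without the 2 libraries with placental transcripts 3 and the lower number series alone 0, and leaving out single libraries gave 1 to 125. The count of tubulin genes called there was 1 and became 0 with the covariate, with summed copies, without the placental libraries and in the lower series, and 0 to 1 without single libraries. For KO Treg over KO vehicle, 1 gene was called: DESeq2 called 64, and RLE, the 2 groups alone, the covariate, summed copies, the placental libraries left out and the lower series each gave 0, as did each library left out (0 to 0). For KO Treg over WT vehicle, 0 genes were called, with 1 by DESeq2 and 3 in the higher series. No tubulin gene was called in either KO Treg comparison under any alternative run. The log2 fold change of Tuba1a for KO vehicle over WT vehicle ran from 1.15 to 1.70 over all alternatives, and for KO Treg over KO vehicle from -0.996 to -0.594 (edgeR or DESeq2 adjusted p from 0.123 to 0.754). Of 175 values of the 9 genes for KO vehicle over WT vehicle, 0 changed sign. In KO Treg over KO vehicle, 2 of 175 did, both of Tuba4a: -0.00070 to 0.43 without single libraries and -0.00040 without the placental ones. For KO Treg over WT vehicle, 15 of 184 did, in 6 genes. Without single libraries, Tubb2a ran from -0.18 to 0.24, Tubb2b from -0.21 to 0.31, Tubb4b from -0.17 to 0.15 and Tubb5 from -0.049 to 0.070. In the lower series Tubb2a was -0.19, Tubb2b -0.33 and Tubb6 0.010. In the higher series Tuba1c was 0.090 and Tubb4b 0.39, and with the covariate Tubb4b was 0.0070. The cause of these shifts was not tested. Depth limits Tubb3, with 22 counts in all.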
